A study of Homo sapiens with 4 samples.

Results

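A set of 4 type I and type III interferons, together with the chains of the type I, II and III interferon receptors, were followed as 10 rows of the deposited count table, picked by gene symbol from 28278 genes. The ligands were IFNB1 (interferon beta, type I) and IFNL1, IFNL2 and IFNL3 (interferon lambda, type III). The receptor chains were IFNAR1 and IFNAR2 (type I), IFNGR1 and IFNGR2 (type II), and IFNLR1 and IL10RB (type III). All 10 symbols were found. A549 is an established line of human lung adenocarcinoma cells, grown in DMEM with 10% serum. Lentivirus was used to make both stable lines: the control line carries a control construct and has genotype WT, and the other line carries a CBX7 construct and has genotype CBX7 overexpression. Each gave 2 libraries of total RNA. The labels give neither the promoter of the construct nor whether a line is a single clone, and they do not say that the libraries came from separate cultures, so that the spread between them may be technical. The design asks what changes when CBX7, a chromodomain protein of the Polycomb group that represses genes through chromatin, is overexpressed. No untransduced cells are among the 4 libraries, so it cannot be told apart whether a level is low in one line or raised in the other against the parent cells. Words such as fell and rose below only compare the CBX7 line with the control line.

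As background, type I and type III interferons are secreted after cells sense foreign or misplaced nucleic acid. Interferon beta binds a receptor made of IFNAR1 and IFNAR2, and the lambda interferons bind one made of IFNLR1 and IL10RB, a pair that is used mainly by epithelial cells such as those of the airway. Both receptors act through the kinases JAK1 and TYK2 on transcription factors that include STAT2 and IRF9. IFNGR1 and IFNGR2 form the separate receptor of interferon gamma, which signals through JAK1 and JAK2.

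The ligand genes lie in compact loci with known factor sites before their start, and the 250 bases before the start site are shown for IFNB1, IFNL1 and IFNL2 because these genes were low together in the CBX7 line. The sequences are from RefSeq, build GRCh38.p14, written 5′ to 3′ on the strand of the gene. Capitals mark matches, on either strand, to AANNGAAA, a half-site of interferon regulatory factors (IRFs), and to a kappa B site, bound by NF-kB, whose middle pair of bases was free. Windows were chr9:21077943-21078192 (minus strand) for IFNB1, chr19:39296157-39296406 (plus strand) for IFNL1 and chr19:39268146-39268395 (plus strand) for IFNL2.
IFNB1: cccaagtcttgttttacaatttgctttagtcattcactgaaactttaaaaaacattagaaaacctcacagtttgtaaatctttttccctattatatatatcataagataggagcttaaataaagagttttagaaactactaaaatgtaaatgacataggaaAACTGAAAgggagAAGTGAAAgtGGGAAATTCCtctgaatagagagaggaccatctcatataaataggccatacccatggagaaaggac
IFNL1: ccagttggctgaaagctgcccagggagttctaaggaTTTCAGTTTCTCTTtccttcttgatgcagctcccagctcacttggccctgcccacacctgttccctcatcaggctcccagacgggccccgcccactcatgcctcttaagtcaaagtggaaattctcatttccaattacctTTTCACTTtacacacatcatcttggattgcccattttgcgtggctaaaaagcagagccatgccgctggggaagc
IFNL2: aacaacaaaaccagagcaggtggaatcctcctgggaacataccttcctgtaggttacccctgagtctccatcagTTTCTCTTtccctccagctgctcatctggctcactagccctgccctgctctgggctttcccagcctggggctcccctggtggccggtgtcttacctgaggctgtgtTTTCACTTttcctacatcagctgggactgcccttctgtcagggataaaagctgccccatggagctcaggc

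IFNB1 had 2 IRF half-sites, the first starting 89 bases and the second 76 bases before the start site, with a kappa B match, GGGAAATTCC, starting 66 bases before it. IFNL1 had 3 IRF half-sites, of which 2 share bases, and IFNL2 had 2. The window of IFNL3 (chr19:39245251-39245500, minus strand) differed from that of IFNL2 at 1 of 250 bases, C31T, counted from 1 at the 5′ end of the window with IFNL2 first, and it held the same 2 half-sites. A second IFNL3 window in the RefSeq table, for a start site further along the gene, had none. Among receptor chains, 7 windows of 5 genes were read, and 0 held an IRF half-site, while 1, of IFNGR2, held a kappa B match. IFNAR2 had no window in the promoter set, so its promoter was not read. For comparison, an IRF half-site stood in 20.3% of 35116 promoter windows of the same length, 2 or more stood in 4.54%, and a kappa B match stood in 1.40%. The matches describe letters only, and binding was not measured.

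The overexpressed gene itself, CBX7, checked the labels: the controls held 689 and 596 of its counts, the CBX7 libraries 1783 and 1550, and its mean normalised count was 2.16-fold higher (edgeR adjusted p = 0.000141). Library totals ran from 69877585 to 90765502 counts. CPM, used for all levels, is a count scaled to the library total after TMM normalisation, and a floor of 3 counts corresponds to 0.0320 to 0.0440 CPM. Of 9 markers of lung epithelial carcinoma, the keratins KRT8, KRT18 and KRT7 were high, with 6903 ± 110, 4700 ± 4.78 and 1618 ± 71.0 CPM in controls (SD, n = 2), whereas the alveolar genes SFTPB and SFTPC had 0 to 10 counts in every library, KRT19 had 7 to 39, EPCAM 56 to 149 and NKX2-1 26 to 119. KRT7 was called lower with CBX7 (1324 ± 13.3 CPM, adjusted p = 0.0342) and NKX2-1 higher (0.385 ± 0.118 to 1.18 ± 0.130 CPM, adjusted p = 0.0489). Neither call was firm. That of KRT7 was lost in 5 of 11 other fits, among them edgeR with library totals in place of TMM (adjusted p = 0.0813). That of NKX2-1 was lost in 7 of 11, among them DESeq2 (adjusted p = 0.0686) and limma-voom (adjusted p = 0.0511). Listed markers of plasmacytoid dendritic cells, a main blood source of type I interferon, were low to different degrees. CLEC4C and LILRA4 had 0 to 8 counts, while IL3RA had 32 to 55 (0.371 to 0.806 CPM) and was not called (edgeR adjusted p = 0.598). The T cell gene CD3E had 0 everywhere, and the 8 leukocyte markers summed to 7.999 and 6.76 CPM in controls and 4.47 and 3.82 CPM with CBX7. Of these 8, ITGAM was lower (5.36 ± 1.09 to 0.821 ± 0.00141 CPM), CD14 was higher (1.31 ± 0.0772 to 2.80 ± 0.403 CPM, adjusted p = 0.0299, and 0.0544 to 0.213 with any 1 library left out), 1 was not called and 5 were not tested. The part of these marker genes in the results was not tested.

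Lambda interferon transcripts were nearly absent from the CBX7 line, while no receptor chain was more than 1.60-fold below the controls. The lambda interferons IFNL1, IFNL2 and IFNL3 fell to 0, 0 and 2 counts over both CBX7 libraries. The interferon gamma receptor chains IFNGR1 and IFNGR2 and the type I chain IFNAR2 fell modestly, and IFNAR1, IFNLR1 and IL10RB were not called. In all, 6 of 10 members were called, where 24.4% of the 17271 tested genes were called by edgeR. The 6 were lower, against 13.9% of tested genes lower and 10.5% higher (2399 and 1809 genes, or 2033 and 2486 with library totals in place of TMM). Members with a higher level numbered 0, also at an unadjusted p under 0.05 and with DESeq2 or limma-voom. In 9 of 10 members the groups did not overlap, as in 62.8% of tested genes, and in each of the 9 the controls stood above, as in 31.9%. All 4 ligands passed the filter on low counts through the control libraries alone, so their being tested already required a difference. The members were also chosen with earlier results of these data known, so their counts are not independent results.

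**Figure D1:**
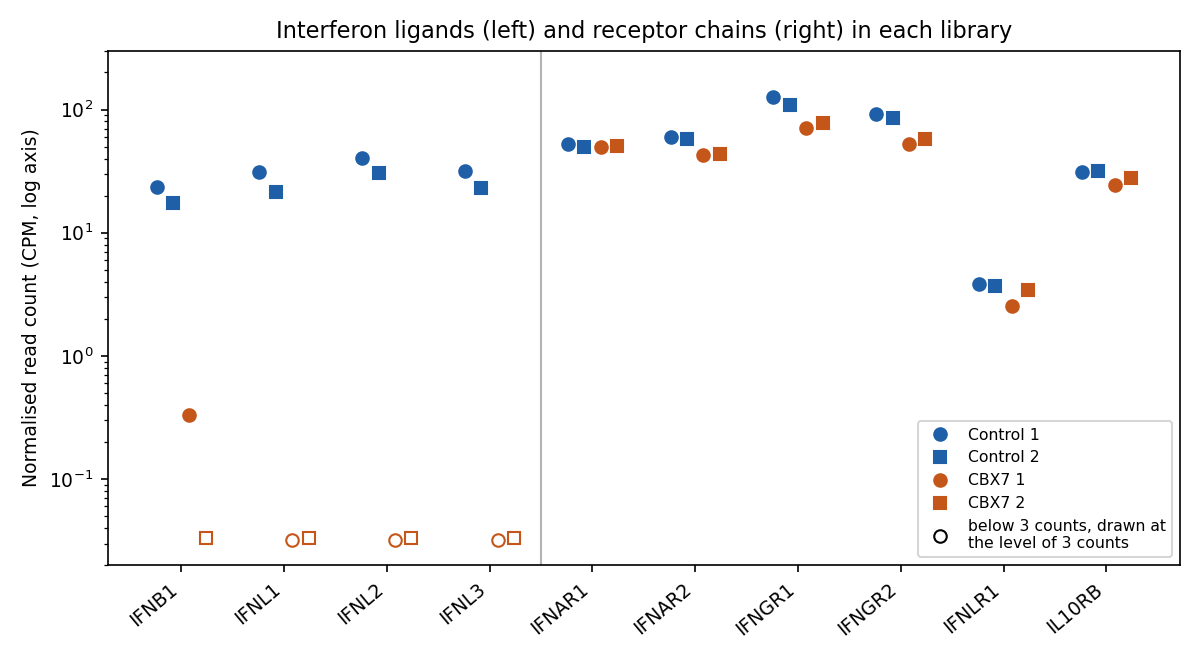
Normalised read count (CPM, log axis) of each member in the 4 libraries, controls in blue and CBX7 libraries in orange, with open symbols at the level of 3 counts for values below it. The 4 ligands lie between 17.5 and 40.4 CPM in controls and at or below 0.331 CPM with CBX7, while receptor chains of both lines lie close together.

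IFNL1 (chromosome 19, 39296407 to 39298673), which encodes interferon lambda 1, had 2697 and 1460 counts in the controls (31.3 and 21.4 CPM) and 0 in both CBX7 libraries. The groups did not overlap, and the level was at least 807-fold lower with CBX7 against a floor of 3 counts per library (adjusted p = 3.18e-10). IFNL2 (chromosome 19, 39268396 to 39270188), for interferon lambda 2, had 3483 and 2094 counts (40.4 and 30.7 CPM) against 0 and 0, at least 1089-fold lower (adjusted p = 3.42e-11). Bounds of this kind hold only if the zeros are absences of reads and not failed estimates. IFNL3 (chromosome 19, 39243455 to 39245250), for interferon lambda 3, had 2709 and 1583 counts (31.4 and 23.2 CPM) against 0 and 2. Its ratio was 2556, with an exact 95% counting interval of 707 to 21110 (adjusted p = 7.00e-11). The fitted log2 fold change of IFNL3 was -11.11 with 4 libraries, -10.17 without CBX7 library 1 and -14.14 without CBX7 library 2, which holds the 2 counts. The value of -14.14 comes from a CBX7 count of 0, so its size is largely set by the small prior count that the fit adds. In bulk RNA, fewer cells that make a transcript and less of it per cell cannot be told apart.

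IFNL2 and IFNL3 are near-copies, so that reads could be split between them in the authors' counting. Their longest coding transcripts in GENCODE v29 were identical at 98.0% of 734 aligned bases, with 125 bases as the longest shared run, against 78.8% and 41 bases between IFNL1 and IFNL2. Summed to 1 row, IFNL2 and IFNL3 had a fitted log2 fold change of -12.31 (adjusted p = 9.76e-12), so the call does not rest on the split. IFNL1, which shares less sequence, had 0 counts in the CBX7 libraries as well.

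IFNB1 (chromosome 9, 21077104 to 21077942), a gene of 1 exon, had 2035 and 1196 counts in the controls (23.6 and 17.5 CPM) and 31 and 0 in the CBX7 libraries (0.331 and 0 CPM). Both controls stood far above both CBX7 libraries, and the mean was 124-fold lower with CBX7. Even so, the gene was not called by edgeR: the log2 fold change was -6.93 (SE 1.29, adjusted p = 0.0831). With 31 counts in one CBX7 library and 0 in the other, edgeR's dispersion estimate was 2.47 for IFNB1, against 0.0174 to 0.0237 for the lambda genes. IFNB1 was called by DESeq2 (adjusted p = 0.0289) and limma-voom (adjusted p = 0.000202). It was also called when either CBX7 library was left out, with log2 fold changes of -13.71 without CBX7 library 1 and -5.94 without CBX7 library 2; those fits assume that the lone CBX7 library varies as the controls do. The fitted size thus depended on which CBX7 library was used, and the direction did not. The value of -13.71 comes from a CBX7 count of 0. Its size is largely set by the small prior count that the fit adds, and it is not a measured fold.

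Proportions among the ligands were alike in the 2 controls. IFNL2 made up 31.9% and 33.1% of the ligand counts, IFNL3 24.8% and 25%, IFNL1 24.7% and 23.1%, and IFNB1 18.6% and 18.9%.

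**Figure D2:**
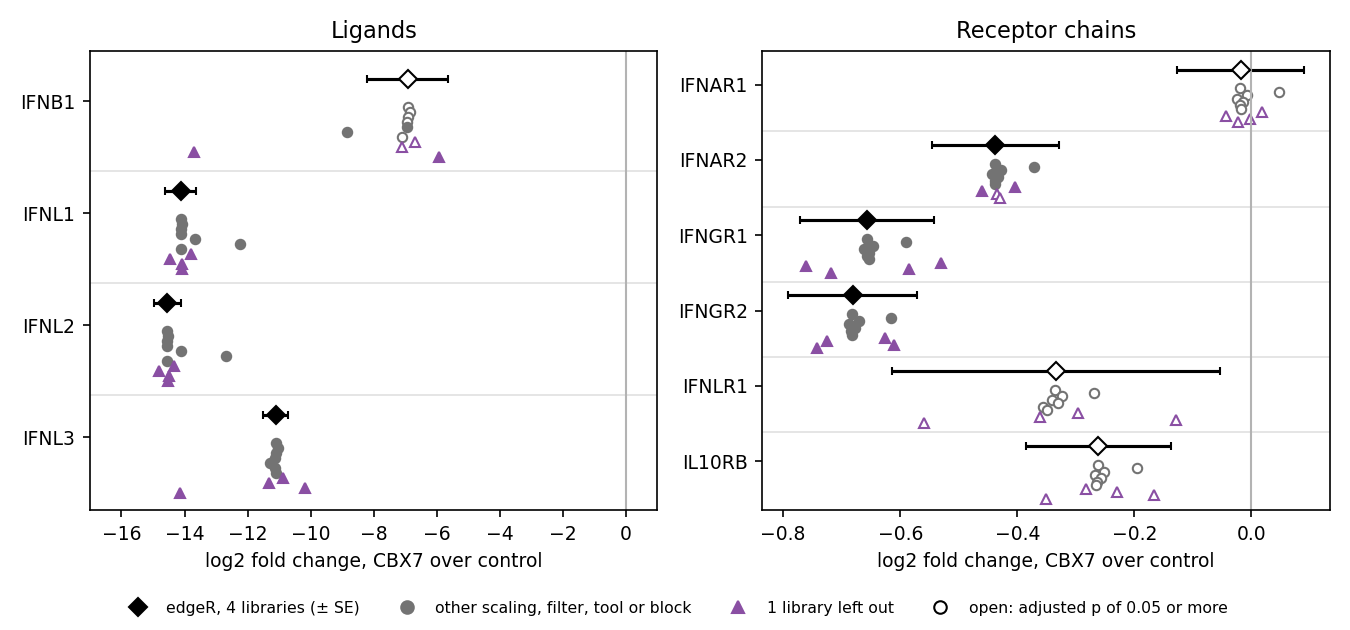
Fitted log2 fold change (CBX7 over control) of each member, with diamonds for edgeR on 4 libraries and their SE, circles for another scaling, filter, tool or the replicate block, and triangles for fits without 1 library; open symbols have an adjusted p of 0.05 or more. The horizontal scales of the panels differ: ligands run from -14.82 to -5.94 and receptor chains from -0.76 to 0.05.

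Of the type I receptor chains, IFNAR2 was called lower and IFNAR1 was not called, which does not show that IFNAR1 was unchanged. IFNAR2 (chromosome 21, 33229938 to 33265664), the chain that binds interferon most tightly, had 59.7 and 57.2 CPM in the controls and 43.1 and 43.2 CPM with CBX7. The groups did not overlap, and the fitted difference for IFNAR2 was -0.44 in log2 units, with SE 0.108 and adjusted p = 0.00950, which was larger in size than that of 60.2% of tested genes. Its call was lost without CBX7 library 1 (adjusted p = 0.0798) or without CBX7 library 2 (0.107), with nearly the same fold changes of -0.43 in each. IFNAR1 (chromosome 21, 33324395 to 33359864), the other signalling chain, had 52.4 and 50.03 CPM in controls and 50.1 and 51.0 CPM with CBX7. These values overlap, and the log2 fold change of -0.02 (SE 0.108, adjusted p = 0.931) turned to 0.05 with library totals in place of TMM. The ratio of IFNAR2 to IFNAR1 counts within a library was 1.14 in both controls and 0.861 and 0.846 with CBX7, an exact two-sided permutation p of 0.333, which is the smallest that 2 against 2 libraries can give.

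Both chains of the interferon gamma receptor fell by a like amount. IFNGR1 (chromosome 6, 137197484 to 137219385), the ligand-binding chain, had 127 and 108 CPM in the controls and 71.1 and 78.4 CPM with CBX7, a 1.58-fold lower mean (log2 fold change -0.66, SE 0.115, adjusted p = 0.000920). IFNGR2 (chromosome 21, 33402882 to 33437516), the chain that carries JAK2, had 91.4 and 85.0 CPM against 52.4 and 57.7 CPM, 1.60-fold lower (log2 fold change -0.68, SE 0.1105, adjusted p = 0.000488). Neither gene's groups overlapped, and both were called in all 11 other fits. The ratio of IFNGR1 to IFNGR2 counts was 1.39 and 1.27 in controls and 1.36 in both CBX7 libraries (exact permutation p = 1), so the groups overlapped in the balance of the chains. Their ligand gene, IFNG, had 0 counts in all 4 libraries.

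The lambda receptor showed smaller differences that did not pass the test. IFNLR1 (chromosome 1, 24154168 to 24187289), the chain particular to lambda interferons, had 331 and 250 counts in controls (3.84 and 3.66 CPM) and 237 and 309 with CBX7 (2.53 and 3.43 CPM), giving -0.33 in log2 units with SE 0.280 (adjusted p = 0.439). The CBX7 libraries lay apart from each other by more than CBX7 library 2 lay from the controls. IL10RB (chromosome 21, 33266367 to 33310182), a chain shared with the receptors of interleukin 10 and interleukin 22, had 30.9 and 32.0 CPM in controls and 24.5 and 28.0 CPM with CBX7 (log2 fold change -0.26, SE 0.124, adjusted p = 0.148). Neither was called in any of 11 other fits, which does not show that they were unchanged. The ratio of IFNLR1 to IL10RB counts was 0.124 and 0.115 in controls and 0.103 and 0.122 with CBX7 (exact permutation p = 0.667). The median log2 fold change of the 6 receptor chains was -0.39, beside -0.00015 over all tested genes.

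Of the receptor genes, 4 lie side by side on chromosome 21 in the order IFNAR2, IL10RB, IFNAR1 and IFNGR2, with gaps of 0.702, 14.2 and 43.0 kb. Called genes stood at both ends of the row and uncalled ones between them. RefSeq also gives a read-through gene that joins IFNAR2 and IL10RB, and a divergent transcript, IL10RB-DT, that overlaps the end of IFNAR2 and had 64 and 59 counts in controls and 29 and 49 with CBX7. How reads of such overlaps were counted, and whether strand was used, is not given in the sources used here, so the values of IFNAR2 and IL10RB carry that uncertainty.

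**Figure D3:**
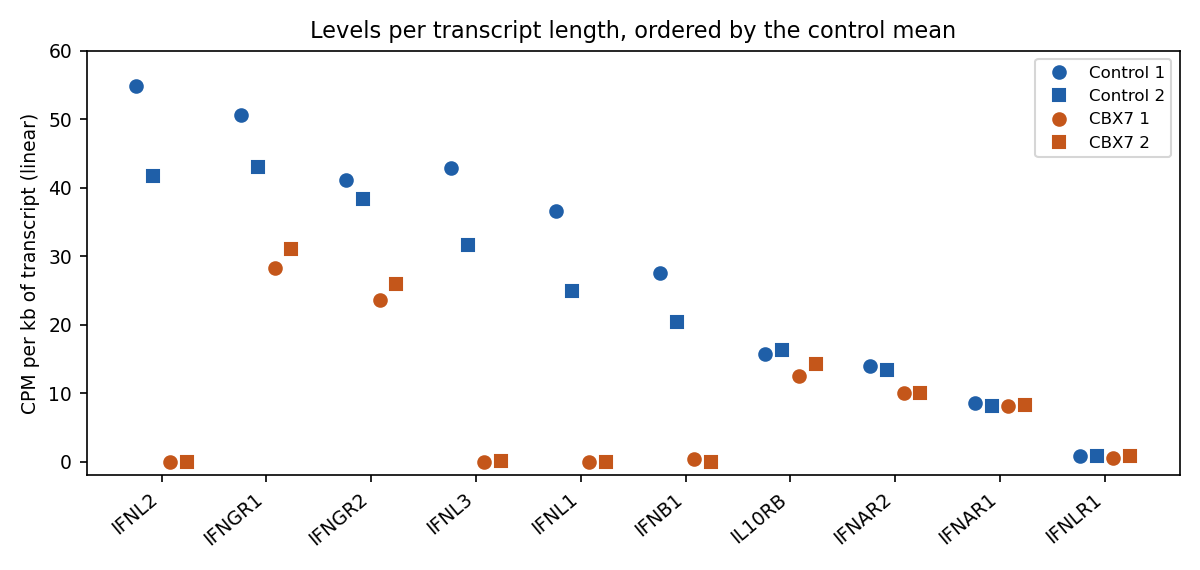
CPM per kb of the longest coding transcript in GENCODE v29 (linear axis) for each member and library, ordered by the control mean. Ligands mix with the gamma receptor chains in the controls, from 48.3 for IFNL2 to 24.0 for IFNB1, and IFNLR1 is last at 0.825.

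Per transcript length, the controls carried ligand transcripts at levels like those of the most abundant receptor chains. On the scale of CPM per kb of the longest coding transcript, IFNL2 had 48.3 ± 9.35 (SD, n = 2) and IFNGR1 46.8 ± 5.37, followed by IFNGR2 (39.7 ± 2.01), IFNL3 (37.2 ± 7.95), IFNL1 (30.8 ± 8.18) and IFNB1 (24.0 ± 5.02). The lower part of the order was IL10RB (16.0 ± 0.3802), IFNAR2 (13.6 ± 0.402), IFNAR1 (8.34 ± 0.274) and IFNLR1 (0.825 ± 0.0278). Library values overlapped between IFNL2 and IFNGR1, between IFNGR2 and IFNL3, between IFNL3 and IFNL1 and between IFNL1 and IFNB1, and they did not between the remaining neighbours. In the CBX7 libraries the order of the receptor chains was the same, from 29.7 ± 2.04 for IFNGR1 to 0.655 ± 0.139 for IFNLR1, with no overlap between neighbours. The order depends on the isoform: with the shortest coding transcript, an alternative chosen after seeing the data, IFNAR2 moved to 82.3 CPM per kb in controls and stood first, while IFNLR1 stayed last at 5.57.

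Other interferon genes were sparse in A549 cells. Of 18 listed, 5 were tested, with a median log2 fold change of -1.72. Of these 5, 2 were called lower and 3 were not called, beside 13.9% of all tested genes lower. IFNL4, for interferon lambda 4, which RefSeq lists as a transcribed pseudogene, lies 1.063 kb from IFNL3. It had 168 and 56 counts in controls and 0 and 3 with CBX7, a fitted log2 fold change of -6.28 (adjusted p = 0.000372). Like the member ligands, IFNL4 and IFNA13 passed the filter on low counts through the control libraries alone, so their being tested already required a difference. The median and the count of lower genes in this list carry that limit. IFNE, an interferon of epithelia, had 2.25 ± 0.286 CPM in controls and 0.682 ± 0.228 CPM with CBX7 (adjusted p = 0.00848), a call that was lost without control library 2 (0.0625) or CBX7 library 2 (0.0606). The interferon alpha genes IFNA1 and IFNA13 had 16 and 36, and 34 and 14, counts in controls against 9 and 13, and 3 and 2, with CBX7 (adjusted p of 0.339 and 0.0735). Interferon alpha genes resemble each other closely, so the level of any one is uncertain. The 13 genes that were not tested had at most 37 counts in a library.

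Genes that sense nucleic acid and switch on the ligands were mostly lower. Of 20 tested genes of ligand induction, 17 were lower, 1 was higher and 2 were not called (median log2 fold change -0.97). With library totals in place of TMM, 15 were lower. Over all tested genes, 13.9% were lower and 10.5% higher. This list and the lists below were chosen with earlier results of these data known, so their counts are not independent results. IFIH1 (MDA5) and DDX58 (RIG-I), sensors of viral RNA, fell with log2 fold changes of -5.74 and -5.23, the endosomal sensor TLR3 with -4.31 and the factor IRF1 with -4.08 (adjusted p of 1.72e-12, 9.73e-11, 2.26e-10 and 5.92e-12). MAVS, the mitochondrial adaptor of the RNA sensors, was the gene that rose, from 144.5 ± 15 to 184 ± 11.9 CPM (adjusted p = 0.0283), and its call was lost without control library 1 (0.146) or CBX7 library 1 (0.245). IRF3, the factor that starts interferon beta transcription, had 33.8 ± 3.89 and 35.7 ± 1.24 CPM (adjusted p = 0.716), and ATF2, its partner at the IFNB1 promoter, had 43.1 ± 4.57 and 38.1 ± 4.19 CPM (adjusted p = 0.355).

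**Figure D4:**
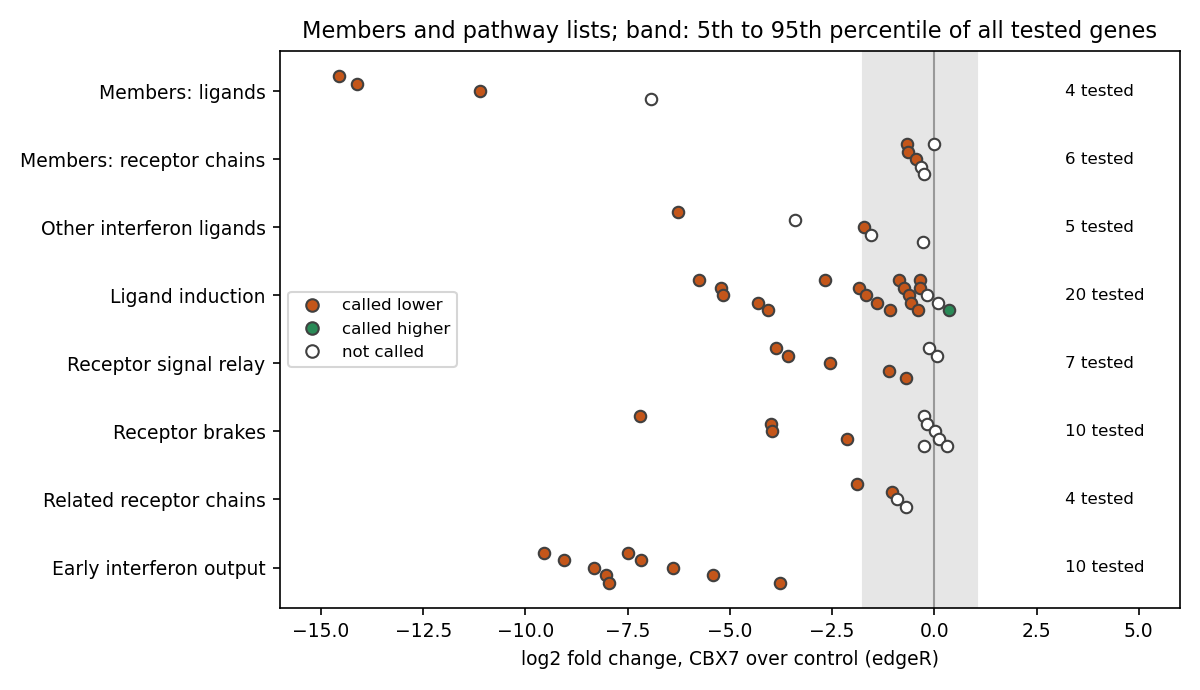
Fitted log2 fold change (CBX7 over control, edgeR) of each tested gene in the members and in 6 lists, with filled orange for called lower, green for called higher and white for not called; the grey band spans the 5th to 95th percentile of all tested genes, -1.75 to 1.04. All 4 ligands lie left of the band and all 6 receptor chains lie within it.

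Past the receptors lie the kinases and STAT factors that relay the signal. Of 7 tested genes, 5 were lower and 2 not called (median log2 fold change -1.10), beside 13.9% of all tested genes lower. STAT2, IRF9 and STAT3 fell with log2 fold changes of -3.57, -2.54 and -0.68 (adjusted p of 6.64e-11, 1.97e-05 and 0.000104); IRF9 missed the threshold without control library 1 (0.0502). The kinases bound to the type I and III receptors, JAK1 (245 ± 12.1 and 225 ± 6.81 CPM) and TYK2 (43.4 ± 0.00729 and 45.3 ± 1.99 CPM), were not called (adjusted p of 0.381 and 0.759). JAK2, the kinase carried by IFNGR2, was called lower. It had 31.4 ± 6.35 CPM in controls and 14.6 ± 0.844 CPM with CBX7 (log2 fold change -1.10, edgeR adjusted p = 0.000129).

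Among 10 tested brakes on receptor signalling, 4 were lower and 6 not called (median log2 fold change -0.25). The share of all tested genes that were lower was 13.9%. USP18, which blocks signalling at IFNAR2, fell from 288 ± 13.0 to 18.3 ± 0.771 CPM (adjusted p = 5.66e-12), and SOCS1 and SOCS3, feedback inhibitors, fell with log2 fold changes of -4.00 and -2.13. ISG15, which stabilises USP18, fell from 1035 ± 106 to 7.08 ± 3.47 CPM (adjusted p = 0.0202), a call that was lost without control library 1 (0.148) or control library 2 (0.0762) and with the replicate block (0.116). The phosphatases PTPN1 and PTPN11 were not called (adjusted p of 0.118 and 0.394).

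Related receptor chains of the same family offer a comparison for the members. Of 6 listed, 4 were tested, 2 lower and 2 not called (median log2 fold change -0.98), beside 13.9% of all tested genes lower. IL22RA1, which pairs with IL10RB to bind interleukin 22, fell 3.70-fold, from 20.5 ± 1.58 to 5.53 ± 1.02 CPM (adjusted p = 2.62e-06), and F3 (tissue factor) fell from 6.05 ± 0.442 to 2.93 ± 0.354 CPM (adjusted p = 0.00709, and 0.0602 without CBX7 library 1). IL20RB and IL20RA had 1.57 ± 0.312 and 0.496 ± 0.0447 CPM in controls and 0.832 ± 0.0165 and 0.307 ± 0.208 CPM with CBX7 (adjusted p of 0.147 and 0.622).

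Of genes that the type I and III receptors switch on early, all 10 tested were called lower, beside 13.9% of all tested genes. Their median log2 fold change was -7.72. The list was chosen with earlier results of these data known, so its count is not an independent result. IFI27, RSAD2, IFIT3 and BST2 fell with log2 fold changes of -9.55, -9.06, -7.95 and -7.18 (adjusted p of 9.21e-13, 1.99e-13, 7.59e-13 and 3.01e-12). Among the 10, IFI6 and IFIT1 lost their calls without control library 1 (0.116 and 0.184), without control library 2 (0.0577 and 0.108) and with the replicate block (0.0601 and 0.130).

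Outside the 10 members, the tested genes whose pattern over the 4 libraries lay nearest to that of IFNB1 were UBA7, the activating enzyme for ISG15, TRANK1 and SAMD9. Their Euclidean distances were 0.284, 0.440 and 0.594 on centred log2(CPM + 0.5). UBA7 had 4148 and 2535 counts in controls and 81 and 34 with CBX7. Nearest to IFNL1, again with members left out, were IFIH1, the guanylate-binding protein GBP1 and HERC5, the ligase for ISG15, at distances of 0.265, 0.328 and 0.345. IFIH1 kept 668 and 755 counts in the CBX7 libraries, where IFNL1 had 0, and the added 0.5 CPM narrows such differences between low levels.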

How the data were processed

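The deposited table gives whole-number estimated counts per gene for 4 libraries; the authors used StringTie 2.2.1 and HISAT2 2.2.1, with hg38 and DESeq2 also named, per the submitters' processing notes, which state no roles. No source used here gives the annotation, the strand setting or the treatment of shared reads. Values were rounded before use, which changed 0 of them. Genes were filtered with filterByExpr (minimum count 10, minimum total 15), which left 17271, scaled by TMM and compared with the quasi-likelihood test of edgeR 4.0.16 (R 4.3.3, robust, group only, all 4 libraries). Where no other tool is named, adjusted p-values come from that edgeR fit, by Benjamini-Hochberg over the genes tested, and a gene was called under 0.05. Standard errors came from the fold change and its F statistic. DESeq2 1.42.0, limma-voom 3.58.1, other scalings and filters, a replicate block and leaving out each library were the alternatives. Fits were tested on counts simulated with 1 fixed dispersion. There edgeR recovered 100% of genes changed by a log2 fold change of -3, 74% at -1 and 86% at 1. Smaller changes, such as those of the receptor chains, were not simulated, so this check does not cover them. Counting intervals and floors cover counting error only. Transcript identity came from global alignment (Biopython 1.88). Coordinates are RefSeq GRCh38.p14. Named are all members, CBX7, up to 4 called and 2 uncalled genes per list, and 3 nearest patterns each for IFNB1 and IFNL1. MAVS, JAK2, IFI6, IFIT1, IFNG and IL10RB-DT were added after their values were seen. One gene that the rule names is not reported here. Members and lists were chosen with earlier results of these data known, so their counts beside the shares of all tested genes are not independent results. Summed markers of fibroblasts were 5.27 and 7.90 CPM in controls and 8.47 and 7.64 with CBX7, and of endothelium 1.61 and 0.835 against 2.88 and 3.68; in the latter list CDH5 was called higher.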

Additional observations from a re-analysis of the deposited data

How the results depend on the processing

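All members kept their direction in 11 other fits, except IFNAR1, whose log2 fold change was 0.0478 with library totals and ran from -0.0441 to 0.0185 with 1 library left out (positive without control library 1). Members called lower numbered 7 with DESeq2 and limma-voom, which added IFNB1, and 6 in the other fits; without either CBX7 library IFNB1 took the place of IFNAR2 among the 6. With 1 library left out, calls over all genes ranged from 2729 to 3924 (4208 with 4 libraries), higher calls from 1021 to 1790 (1809), and the lists' counts from 1 to 2 for other ligands lower, 0 to 1 for ligand induction higher, 0 to 1 for receptor brakes higher (PTPN6) and 1 to 2 for related chains lower; such fits have fewer samples. Library totals gave 2486 higher and 2033 lower genes. Replicate numbers were shared by label only, with r = 0.108 over genes between the libraries' deviations; the replicate block gave 4603 calls and the same 6 members. A prior count of 2 moved the fitted value of IFNL2 to -10.56. Counts of a read-through of IFNAR2 and IL10RB were not analysed here, so that alternative was not run. Depth limits the ligands in the CBX7 libraries, where 3 counts are 0.0320 and 0.0333 CPM.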

Other observations

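Control library 1 carried more ligand than control library 2. The ratio of their CPM was 1.35 for IFNB1, 1.46 for IFNL1, 1.32 for IFNL2 and 1.36 for IFNL3, while it was 0.967 to 1.18 for the 6 receptor chains. Over the tested genes with a count in control library 2, the median ratio was 0.997 and the 25th and 75th percentiles were 0.869 and 1.16, so the ligands stood above the 75th percentile and below the 95th, at 1.82. With 1 library on each side this difference has no replicate check.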
